A study of Mus musculus with 2 samples.

Results

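Heat shock proteins and their DNAJ partners were compared between 2 arrays, 1 of cells labelled RCCS and 1 of cells labelled control, by taking every non-control probe whose array gene name begins with Hsp followed by a, b, d, e, h or a digit, or with Dnaja, Dnajb or Dnajc. This gave 124 probes of 62 gene names, out of 41171 non-control probes of 28783 names. Both arrays held RNA of RAW 264.7, a mouse macrophage-like cell line that can become osteoclast-like when given the cytokine RANKL. The RCCS cells were grown for 24 h in a rotary cell culture system, a rotating vessel used to model microgravity, beside ground-based control cells. The protocol names RANKL at 80 ng/ml for 24 h in the same words for both samples, so whether the control cells received it is not settled by the labels. No genetic change is named for either culture. Each condition had 1 array, so there is no test between conditions, no p-value and no replicate check on any difference below, and a difference of RNA per cell cannot be told apart from a difference in the mix of cells.

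Heat shock proteins are molecular chaperones, which bind unfolded stretches of other proteins and let them fold, cross membranes or be degraded. Hsp70 chaperones work in cycles of ATP binding and release: DNAJ proteins, also called Hsp40 or J-domain proteins, bring them clients and trigger ATP hydrolysis, and Hsp110 proteins help release the nucleotide. Hsp90 takes over clients such as kinases and steroid receptors at a late stage, Hsp60 with Hsp10 forms a folding chamber in the mitochondrion, and small heat shock proteins hold unfolded proteins without ATP. Cytosolic members are switched on by the factor HSF1 under proteotoxic stress, and those of the endoplasmic reticulum (ER) by the unfolded protein response.

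Of the 62 genes, 52 were measured, meaning that at least 1 probe was well above background on both arrays. Values are log2 of the processed signal divided by the array's 75th percentile (849 for control and 966 for RCCS), RCCS minus control, averaged over a gene's measured probes. Signals quoted are the unscaled processed signals, averaged over the same probes. Intervals are 95% intervals from the spot error that the scanner software assigns, and they do not cover differences between cultures, RNA extractions or labelling. They treat the probes of a gene as independent and do not cover disagreement between them. An interval can thus be narrower than the range of its probes. The median spot error was 0.15 for the members and 0.20 for all measured genes. Scaling to the spike-in controls in place of the 75th percentile raises every ratio by 0.31, so ratios between -0.31 and 0, and the medians of the small, DNAJ, ER and cytosolic groups, change sign with it, while the distance to the all-gene median stays the same. The ratios of the 52 ran from -1.03 for Hspb1 to 0.56 for Hspa4l. None of the 52 was at least 2-fold higher on the RCCS array, where 3.88% of 16023 measured genes were, and 1 was at least 2-fold lower, where 3.76% of all genes were. At 1.5-fold, 0 were higher against 9.74% of all genes and 7 were lower against 14.8%. A mean signal under 1000 was found for 16 of the 52 members and for 9007 of the 16023 genes. The counts past a threshold were not matched for brightness or spot error. The median of the 52 was -0.19, and that of all measured genes was -0.13. A log2 ratio below 0 was found in 37 of the 52 members and in 61.8% of all genes, and 30 members lay below the all-gene median. The whole set was thus close to the array as a whole, and the differences lay among its members.

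**Figure D1:**
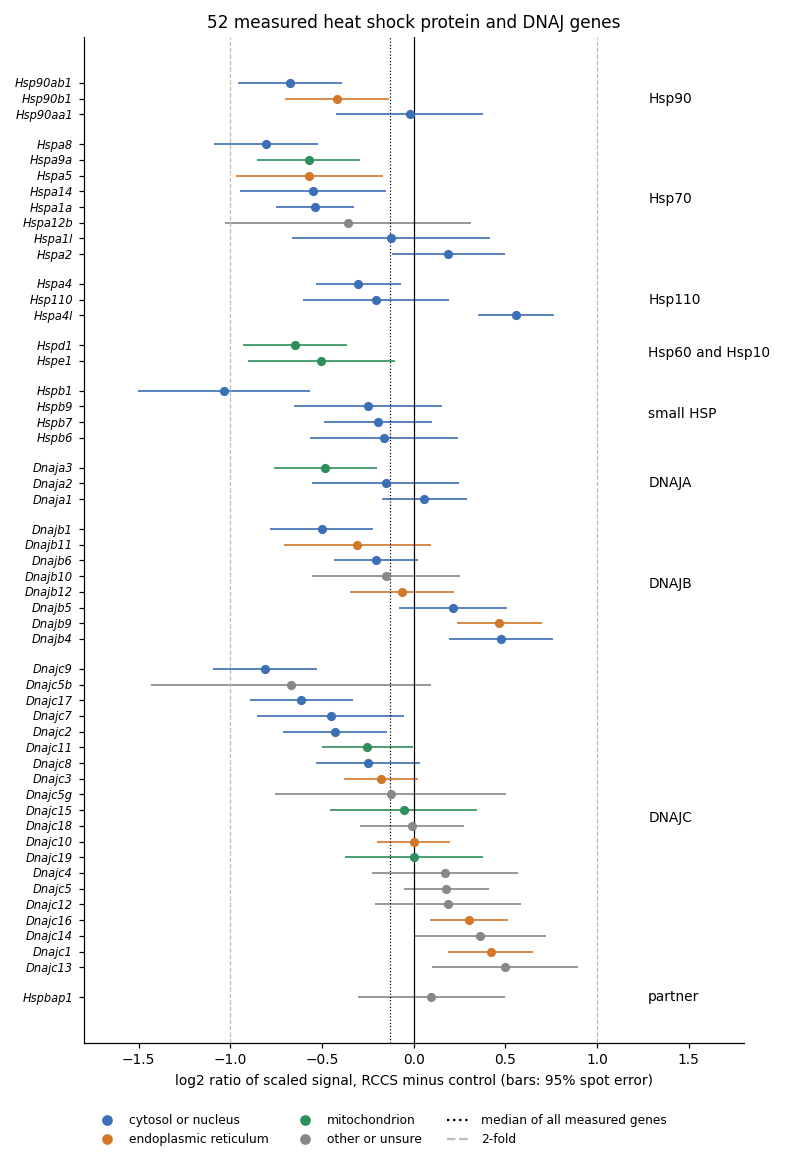
Log2 ratio of scaled signal (RCCS minus control, horizontal axis) for the 52 measured genes, grouped by chaperone class and coloured by compartment; bars are 95% spot-error intervals, the dotted line is the median of all measured genes (-0.13) and the dashed lines mark 2-fold. The genes run from Hspb1 at -1.03 to Hspa4l at 0.56 and both Hsp60 and Hsp10 genes lie below 0.

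**Figure D2:**
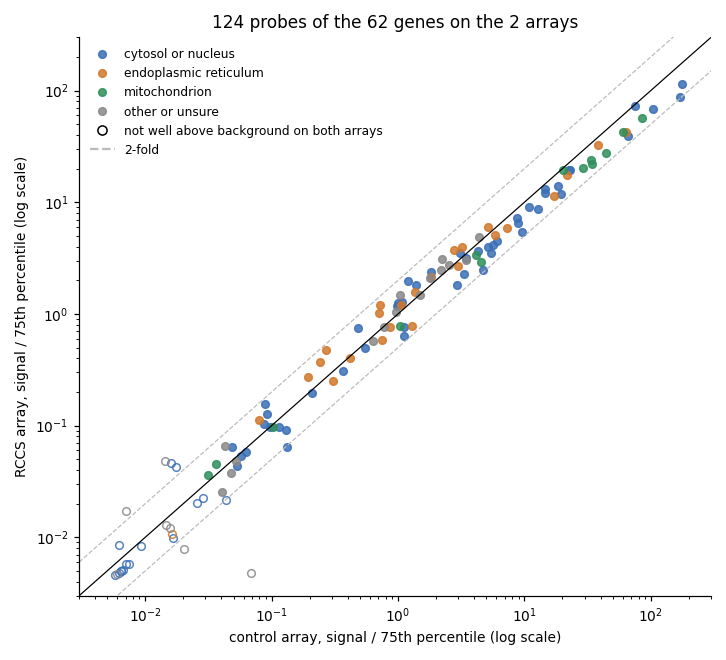
Processed signal divided by the array's 75th percentile on the control array (horizontal) and the RCCS array (vertical), both on log scales, for the 124 probes of the 62 genes; open circles are probes not well above background on both arrays. The filled points follow the diagonal within the dashed 2-fold lines except for 1 Hspb1 probe.

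A property seen in genes with more than 1 measured probe is given first, because it may touch the values below. Genes with 1 measured probe cannot show it. Where a gene had more than 1 measured probe, the probe nearest the 3′ end of the transcript usually gave the higher ratio. This held for 28 of 31 members with such a pair, with a median gap of 0.33, and for 77.3% of 4953 genes over the whole array, with a median gap of 0.20. Over all genes the median ratio was 0.01 for the probe nearest the 3′ end and -0.23 for the probe farthest from it, and the gap grew from 0.04 where the probes lay at most 838 bases apart to 0.36 where they lay at least 17991 bases apart in the genome. Among the members the gap was widest for Hspa4, from -0.84 to 0.32, for Dnajc10, from -0.72 to 0.22, and for Dnajb9, from -0.16 to 0.73. It ran the other way in Dnajc11 (-0.09 and -0.42), Hspb7 (-0.10 and -0.28) and Dnajc8 (-0.24 and -0.26). Measured probes on both sides of 0 were found in 10 of the 31 members. The probe order comes from the coordinates in the scanner files, with no genome build named there or in the labels; the strand they imply matched the reference table for 98.9% of 15210 measured probes. Probes under 1 name can also lie on different transcripts. The part that probe position plays in the difference between the arrays was not tested.

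**Figure D3:**
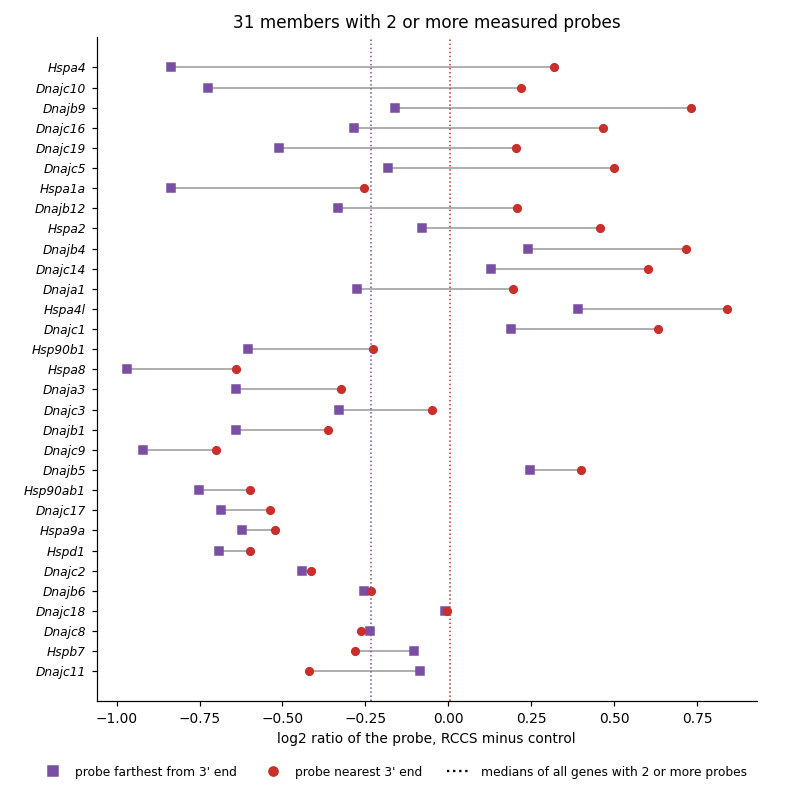
Log2 ratio (RCCS minus control) of the probe farthest from the 3′ end (squares) and the probe nearest to it (circles) for the 31 members with more than 1 measured probe; dotted lines are the medians of the same quantities over 4953 genes. The circle lies to the right of the square in 28 of 31 genes.

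The Hsp90 class has 3 members, and all were measured. Hsp90ab1, the constitutive cytosolic form, had a processed signal of 72369 in control and 52196 in RCCS, which is 1.60-fold lower after scaling (log2 ratio -0.68, interval -0.96 to -0.39). Its probes gave -0.75 and -0.60. Hsp90aa1, the stress-inducible cytosolic form, had 63261 and 70860, a log2 ratio of -0.02 (interval -0.42 to 0.38) from 1 probe. Hsp90b1, the ER form known as Grp94, had 23522 and 21207 (-0.42, interval -0.70 to -0.13), with probes at -0.60 and -0.23. The constitutive cytosolic form therefore had the lowest ratio of the class, while the inducible form stayed within its spot error of no difference. Loess and quantile normalization put Hsp90aa1 at 0.34 and 0.31.

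In the Hsp70 class, 7 of 8 measured genes (Hsp110 relatives apart) had ratios below 0, with a median of -0.54. Hspa8, the constitutive cytosolic Hsc70, was the lowest. Its signal was 147190 in control and 96649 in RCCS, 1.75-fold lower (-0.80, interval -1.09 to -0.52), which is percentile 7.08 among all measured genes. A first probe went from 149920 to 109401 and the second from 144461 to 83898. Hspa9a, now named Hspa9 and known as mortalin, the Hsp70 of the mitochondrial matrix and motor of protein import, had 26927 and 20546 (1.49-fold lower, -0.57, interval -0.86 to -0.29). Hspa5, the ER Hsp70 known as BiP, had 53712 and 41182 (1.48-fold lower, -0.57, interval -0.97 to -0.17). Hspa14, which works with a DNAJ protein at the ribosome, had 10895 and 8474 (-0.55, interval -0.95 to -0.15). The main Hsp70 genes of cytosol, mitochondrion and ER were thus all below 0, with Hspa8 lower than Hspa9a and Hspa5. All have a mean signal of at least 10000, and 81.4% of all genes that bright were below 0.

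Hspa1a, the stress-inducible Hsp70 and a textbook target of HSF1, was also lower, with a signal of 529 in control and 383 in RCCS (-0.54, interval -0.75 to -0.32). All 4 probes were below 0, from -0.84 to -0.25. Mouse has a near-identical copy, Hspa1b, so these probes may have bound both transcripts. The remaining members of the class were dim. Hspa2, best known from testis, had 127 and 156 (0.19, interval -0.12 to 0.50). Hspa1l, another testis form, had 53.7 and 56.0 (-0.12), and Hspa12b, an atypical relative, had 40.8 and 36.2 (-0.36, interval -1.03 to 0.31). For the related Hspa12a the probes disagreed: 1 passed the background limit in control alone (58.6 against 4.61) and another in RCCS alone (12.3 against 46.4), so no ratio is given.

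The Hsp110 genes, whose products act as nucleotide exchange factors of Hsp70, did not share a direction. Hspa4l was the highest of the 52 members, at 806 in control and 1236 in RCCS (1.47-fold higher, 0.56, interval 0.35 to 0.77), and all 4 probes were above 0, from 0.38 to 0.84. Hspa4 had 8205 and 6655 (-0.30, interval -0.53 to -0.07), but its 3 measured probes ranged from -0.84 to 0.32. Hsp110, now named Hsph1, had 18971 and 18713 (-0.21, interval -0.61 to 0.19). Among these 3 genes only Hspa4l kept the sign of its ratio, above 0, under all 12 alternatives of processing.

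The mitochondrial chaperonin genes were both lower. Hspd1, which encodes Hsp60, had 55268 in control and 40601 in RCCS (1.56-fold lower, -0.65, interval -0.93 to -0.36), with probes at -0.69 and -0.60. Hspe1, which encodes its lid Hsp10, had 51328 and 41193 (1.42-fold lower, -0.50, interval -0.90 to -0.10). These genes lie head to head on chromosome 1 and share 285 bases of their 300-base promoter windows, which run from 250 bases before to 50 bases after the start site, so the same stretch is printed from each strand. The capitals mark matches to the heat shock element, read here as GAA, TTC and GAA in that order with any 2 bases between neighbours, searched on both strands; in both windows a match on each strand overlaps the other. Sequences are from RefSeq, build GRCm38.p6.
Hspd1, chr1:55087883-55088182, minus strand: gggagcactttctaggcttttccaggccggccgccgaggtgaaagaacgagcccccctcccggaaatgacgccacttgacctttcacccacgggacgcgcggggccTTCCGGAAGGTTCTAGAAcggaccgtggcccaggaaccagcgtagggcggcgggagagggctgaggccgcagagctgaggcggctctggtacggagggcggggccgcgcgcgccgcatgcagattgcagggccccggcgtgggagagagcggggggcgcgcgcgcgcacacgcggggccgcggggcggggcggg
Hspe1, chr1:55087898-55088197, plus strand: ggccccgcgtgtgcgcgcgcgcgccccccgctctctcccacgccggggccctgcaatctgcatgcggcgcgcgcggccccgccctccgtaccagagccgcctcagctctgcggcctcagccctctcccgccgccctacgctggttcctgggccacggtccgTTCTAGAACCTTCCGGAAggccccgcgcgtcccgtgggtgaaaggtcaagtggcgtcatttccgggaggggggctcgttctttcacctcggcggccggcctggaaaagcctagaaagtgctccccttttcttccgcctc

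Promoter windows were found for 51 of the 62 genes, as 68 windows because some genes have several starts. The heat shock element was present in 6 of these windows (8.82%) and in 198 of 32851 windows over the whole table (0.603%). Windows overlap, and these 6 hold 3 separate sites, since both Dnajb6 windows, both Hsph1 windows and the Hspd1 and Hspe1 windows each share a site. Counted by gene, the share was 4 of 51 members (7.84%) and 179 of 27025 genes in the table (0.662%). The genes that held it were Hspd1, Hspe1, Hsph1 and Dnajb6, all measured and all below 0, from -0.65 to -0.20, with a median of -0.35. The 38 measured members with a window and no match had a median of -0.15, and 25 of them were below 0. Hspa1a (-0.54) and Dnajb1 (-0.50) are among these 38. The genes without a window were Hspa8, Hsp90aa1, Hsp90ab1, Hspa9a, Hspb2, Dnajc2, Dnajc5, Dnajc5b, Dnajc11, Dnajc12 and Dnajc18, so neither median includes them. In Dnajb6, which encodes a cytosolic DNAJ that prevents aggregation, the match begins 46 bases before the start site, and in Hsph1 it lies 16 bases into the transcript; both windows are shown for comparison with the chaperonin pair.
Dnajb6, chr5:29735648-29735947, plus strand: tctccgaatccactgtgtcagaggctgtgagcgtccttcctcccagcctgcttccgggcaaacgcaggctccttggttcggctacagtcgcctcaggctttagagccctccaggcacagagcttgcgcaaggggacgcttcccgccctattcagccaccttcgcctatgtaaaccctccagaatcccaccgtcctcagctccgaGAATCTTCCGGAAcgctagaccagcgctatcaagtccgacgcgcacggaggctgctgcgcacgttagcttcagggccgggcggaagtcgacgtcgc
Hsph1, chr5:149636266-149636565, minus strand: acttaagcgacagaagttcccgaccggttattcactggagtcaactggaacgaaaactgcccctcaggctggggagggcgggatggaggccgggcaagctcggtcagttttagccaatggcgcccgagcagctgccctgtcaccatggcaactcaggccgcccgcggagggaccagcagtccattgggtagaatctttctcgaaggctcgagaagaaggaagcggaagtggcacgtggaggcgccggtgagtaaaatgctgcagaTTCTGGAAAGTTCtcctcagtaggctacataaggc
A match is a run of letters and not a measured binding site, and no match says only that these letters are not in the window.

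Small heat shock proteins were dim in these cells: 4 of 7 were measured, and all 4 ratios were below 0. Hspb1, which encodes Hsp25 (Hsp27 in human), held the lowest ratio of the 52, with a signal of 112 in control and 62.3 in RCCS (2.05-fold lower, -1.03, spot error 0.24). This rests on 1 dim probe; a second probe filed under that name was below background on both arrays, and taking that probe in brought the value to -0.29, normexp background correction to -0.72 and loess to -0.97, all short of 2-fold. Hspb9 had 310 and 296 (-0.25), Hspb6 468 and 476 (-0.16) and Hspb7 47.0 and 46.9 (-0.19), each with an interval that includes 0. A Hspb7 probe was printed several times, and the ratios of its 9 usable spots ran from -0.66 to 0.77 with an SD of 0.45, which shows the precision of a single dim spot. By contrast, a brighter Dnajc11 probe printed 10 times ran from -0.51 to -0.36 with an SD of 0.05. Hspb2 passed the background limit in RCCS alone (13.7 and 44.6) on 1 of its probes, while the other passed on neither array (21.9 and 19.7). After scaling, the RCCS signal of the first was 1.62-fold above the lowest passing signal of the control array. That figure leaves out the spot error of its log2 ratio, 0.62. Hspb3 and Hspb8 passed on neither.

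The DNAJ class is the largest, with 31 of 37 genes measured and a median of -0.06. Of the 31, 19 were below 0 and 12 above, and 14 lay below the all-gene median and 17 above it. No DNAJ gene was past 2-fold, where 3.88% of all genes were higher and 3.76% lower. The 3 that were at least 1.5-fold lower, where 14.8% of all genes were, were Dnajc9, Dnajc5b and Dnajc17. The type A members, which have the full set of bacterial DnaJ domains, lay near 0 apart from the mitochondrial one. Dnaja1 had 5272 and 5382 (0.06, probes from -0.28 to 0.26), Dnaja2 12440 and 12733 (-0.15), and Dnaja3, the mitochondrial partner of Hspa9, 3688 and 3011 (-0.48, interval -0.76 to -0.20). Dnaja4 was dim and passed the background limit in RCCS alone (14.8 and 41.0) on 1 probe, while its other probe was below it on both arrays (5.94 and 5.56). After scaling, the RCCS signal of the first was 1.49-fold above the lowest passing signal of the control array. That figure leaves out the spot error of its log2 ratio, 0.62.

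Among cytosolic and nuclear DNAJ genes the spread was wider. Dnajb1, the stress-inducible partner of Hspa1a, had 4507 in control and 3627 in RCCS (1.42-fold lower, -0.50, interval -0.78 to -0.22). Dnajb4, its close relative, had 961 and 1555 (1.39-fold higher, 0.48, interval 0.19 to 0.76), with measured probes at 0.24 and 0.71. Dnajb1 and Dnajb4 thus lay on opposite sides of 0 with intervals that do not meet. Dnajb6 had 4644 and 4529 (-0.20, interval -0.44 to 0.03), and Dnajb5 was dim at 65.9 and 85.1 (0.21, interval -0.08 to 0.51). The lowest DNAJ gene was Dnajc9, which encodes a nuclear histone chaperone, at 10254 and 6979 (1.75-fold lower, -0.81, interval -1.09 to -0.53), with probes at -0.92 and -0.70. Dnajc17, a splicing-related nuclear protein, had 2649 and 1980 (1.53-fold lower, -0.61). Dnajc7, a cytosolic adaptor between Hsp70 and Hsp90, had 4767 and 3962 (-0.45), and Dnajc2, the ribosome-bound partner of Hspa14, had 6335 and 5347 (-0.43). Dnajc8, a spliceosome-linked member, was at -0.25. Its interval ran from -0.53 to 0.03. Hspa14 and Dnajc2, which form 1 complex, had ratios of -0.55 and -0.43.

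In the ER, the chaperones and their DNAJ partners lay on both sides of 0. Next to Hspa5 and Hsp90b1, both lower, Dnajb9 (ERdj4), which is a classic target of the unfolded protein response, had 525 in control and 789 in RCCS (1.38-fold higher, 0.47, interval 0.24 to 0.70). Its probes were at 0.83, 0.73 and -0.16, and the last of these, the one farthest from the 3′ end, went from 732 to 745. Dnajc1, an ER membrane DNAJ that binds ribosomes, had 1146 and 1710 (0.42, interval 0.19 to 0.65), and Dnajc16 had 273 and 400 (0.30, interval 0.09 to 0.52, probes from -0.29 to 0.53). Dnajb11 (ERdj3), a lumenal BiP partner, was at -0.31 (18518 and 17034), and Dnajc3 (p58IPK), another one, at -0.18 (3524 and 3397). Dnajb12, in the ER membrane, was at -0.06 with probes at -0.33 and 0.21, and Dnajc10 (ERdj5), a disulfide reductase, was at -0.00 with probes from -0.72 to 0.30. Over the 9 ER members the median was -0.06. It was 0.21 with the probe nearest the 3′ end of each gene and -0.33 with the probe farthest from it, so the order of the ER group against all genes depends on which probe is read.

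The promoters of Hspa5, Hsp90b1 and Dnajc3 are shown because they carry the ER stress element, read here as CCAAT and CCACG with any 9 bases between them, searched on both strands and set in capitals below. This motif was found in 3 of the 68 member windows (4.41%), those of Hspa5, Hsp90b1 and Dnajc3, and in 39 of 32851 windows over the table (0.119%). Hsp90b1 held it 2 times, and no window held both motifs. The 3 genes had ratios of -0.57, -0.42 and -0.18. Of the 39 measured members with a window and no match, 26 were below 0, with a median of -0.15. The other ER members held no match and lay on both sides of 0, with Dnajb11 at -0.31, Dnajb12 at -0.06, Dnajc10 at -0.00, Dnajc16 at 0.30, Dnajc1 at 0.42 and Dnajb9 at 0.47.
Hspa5, chr2:34771840-34772139, plus strand: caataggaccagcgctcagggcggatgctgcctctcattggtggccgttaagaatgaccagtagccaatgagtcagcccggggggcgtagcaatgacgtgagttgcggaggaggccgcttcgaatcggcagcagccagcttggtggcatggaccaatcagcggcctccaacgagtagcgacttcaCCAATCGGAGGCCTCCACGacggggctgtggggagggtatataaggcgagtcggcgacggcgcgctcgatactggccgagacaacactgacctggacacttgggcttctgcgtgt
Hsp90b1, chr10:86705395-86705694, minus strand: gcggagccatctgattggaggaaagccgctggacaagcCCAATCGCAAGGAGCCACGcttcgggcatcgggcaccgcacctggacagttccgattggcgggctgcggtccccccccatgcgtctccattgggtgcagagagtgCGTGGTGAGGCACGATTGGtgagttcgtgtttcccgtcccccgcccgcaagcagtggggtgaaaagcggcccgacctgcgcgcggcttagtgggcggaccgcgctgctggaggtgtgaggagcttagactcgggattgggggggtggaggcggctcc
Dnajc3, chr14:118937682-118937981, plus strand: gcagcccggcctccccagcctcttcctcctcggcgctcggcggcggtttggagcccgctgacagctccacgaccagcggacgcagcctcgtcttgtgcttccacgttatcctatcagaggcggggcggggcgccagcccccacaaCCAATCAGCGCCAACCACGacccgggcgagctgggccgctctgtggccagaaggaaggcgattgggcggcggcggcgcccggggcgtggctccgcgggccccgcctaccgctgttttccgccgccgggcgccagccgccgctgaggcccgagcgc

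Mitochondrial members formed the lowest compartment. All 7 were measured, with a median of -0.48. A ratio below 0 was found in 6, and the interval lay wholly below 0 for 5, where this was so for 27.5% of all genes. Among all genes with a mean signal of at least 10000 that share was 47.4%. The median spot error was 0.14 for these members and 0.20 for all genes, so their intervals were narrower. The lowest values were those of the folding machinery of the matrix: Hspd1 (-0.65), Hspa9 (-0.57), Hspe1 (-0.50) and Dnaja3 (-0.48). Dnajc11, of the inner membrane organising complex, had 484 and 421 (-0.25, with an interval that ends just below 0, and -0.42 on its bright probe), Dnajc15 17087 and 18716 (-0.05), and Dnajc19, of the protein import motor, 9571 and 7652 (0.00). For Dnajc19 the bright probe was at -0.51, and the other probes, at 0.20 and 0.31, were near background. The mitochondrial median stayed below that of all genes in all 13 settings of processing compared, from -0.51 to -0.17. The 25 cytosolic or nuclear members had a median of -0.25 with 20 below 0, also under the all-gene median in each of the 13 settings, although the gap was close to 0 without the filter on dim probes.

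**Figure D4:**
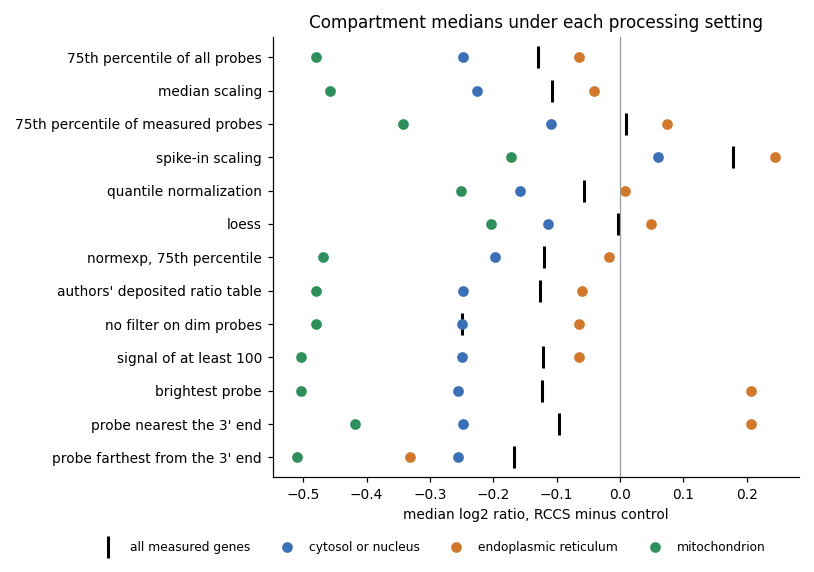
Median log2 ratio (RCCS minus control, horizontal axis) of the measured members of each compartment and of all measured genes (black bars) under 13 settings of processing. The mitochondrial median (green) lies left of the all-gene median in each, and the ER median (orange) lies right of it except with the probe farthest from the 3′ end. Settings that shift every ratio by the same amount cannot change this order.

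The measured DNAJ genes whose compartment was another one or unsure tended to the higher side. Dnajc13 (RME-8), of endosomes, had 886 and 1423 (1.41-fold higher, 0.50, interval 0.10 to 0.90), and Dnajc14 had 1086 and 1358 (0.36, interval 0.01 to 0.72). Dnajc5, the cysteine string protein of secretory vesicles, had 2105 and 2653 (0.18, probes from -0.18 to 0.50). Dnajc12 was at 0.19, Dnajc4 at 0.17, Dnajc18 at -0.01 and Dnajb10, whose accession is now filed under Dnajb2, at -0.15. The relatives of Dnajc5 were dim: Dnajc5b had 34.2 and 24.4 (-0.67, interval -1.43 to 0.09) and Dnajc5g 44.5 and 46.4 (-0.12). Dnajb8, of the cytosolic or nuclear group, passed the background limit in control alone (37.1 and 21.0). After scaling, its control signal was 1.99-fold above the lowest passing signal of the RCCS array. That figure leaves out the spot error of its log2 ratio, 0.44. Dnajb3, Dnajb7 and Dnajb13, placed in the cytosolic or nuclear group too, and Dnajc6 were above background on neither array. Hspbap1, which binds Hspb1 and is itself no chaperone, was at 0.10 (826 and 1004).

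Over the whole array the median ratio was lower in brighter classes of genes. Among the members the brightest class was the lowest, but the middle class lay above the dim one. All 13 members with a mean signal of at least 10000 were below 0, with a median of -0.42; over the array 81.4% of the 1680 genes that bright were below 0, with a median of -0.34. The 23 members with a mean signal between 1000 and 10000 had a median of -0.01, against -0.15 for all such genes, and the 16 dimmer ones -0.16, against -0.08. The abundant chaperones were thus lower together with most other bright genes, and the part of brightness in their difference was not tested. Loess scaling removes the trend of ratio on signal, and under it 8 of the 13 bright members were below 0 and 5 above, with a median of -0.11. Below 0 were Hspa8 (-0.41), Hsp90ab1 (-0.31), Hspd1 (-0.30), Hspa9 (-0.26), Hspa5 (-0.22), Hspe1 (-0.15), Hsp90b1 (-0.11) and, at the edge, Dnajb11 (-0.01). Above 0 were Hsp90aa1 (0.34), Dnajc15 (0.25), Dnaja2 (0.13), Hsph1 (0.10) and Dnajc8 (0.03). Spike-in scaling put 6 of the 13 above 0 and quantile normalization 5.

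Partners of these chaperones outside the name pattern were read from 7 lists. The shares of all measured genes to set beside their counts are 61.8% below 0, 3.76% at least 2-fold lower and 3.88% at least 2-fold higher. Among Hsp90 cochaperones, 14 of 18 measured were below 0, 1 was at least 2-fold lower and 0 higher, with a median of -0.49. Fkbp4, the immunophilin FKBP52 of steroid receptor complexes, had 17310 and 7961 (2.45-fold lower, -1.29, interval not crossing 0, with probes at -1.36 and -1.22), Fkbp5 was at -0.92, the phosphatase Ppp5c at -0.70 and Stip1, the Hop adaptor between Hsp70 and Hsp90, at -0.62. Of the chaperonin TRiC, which folds actin and tubulin, and its helper prefoldin, 13 of 14 genes were below 0 (median -0.38), with Pfdn4 at -0.80, Cct6a at -0.72, Pfdn2 at -0.65 and Cct7 at -0.62. All 12 Hsp70 partners and exchange factors were below 0 (median -0.29), with Bag2 at -0.74, Stub1 at -0.45, St13 at -0.42, Hyou1 at -0.37 and the stress-inducible Bag3 at -0.08. In the mitochondrial chaperone and protease list 15 of 16 were below 0 (median -0.37), among them Tomm20 (-0.76), Trap1, the mitochondrial Hsp90 (-0.69), Htra2 (-0.64) and Timm44 (-0.52). The ER folding and unfolded protein response list had 20 of 28 below 0 (71.4%, median -0.31). Its widest ratios were those of Sdf2l1 (-0.92), Atf4 (-0.82), Syvn1 (-0.67, with probes at -1.32 and -0.02) and Creld2 (-0.64). The other 8 of the 28 were above 0, the highest at 0.28, so the list did not share 1 direction. The heat shock factor Hsf1 was at -0.26 (4745 and 4513), Hsf2 at -0.43 and the HSF-binding Hsbp1 at -0.02. In the last list, of related genes named otherwise, Gak was at 0.51, Serpinh1 (Hsp47, dim) at -0.44 and Cryab, a small heat shock protein gene, at 0.03 (dim); its median was 0.06. Apart from Fkbp4, none of the measured genes in these 7 lists was at least 2-fold higher or lower. The lists overlap by 6 genes that stand in more than 1 of them, Hyou1 and Trap1 included. Many of these genes have a mean signal of at least 10000, every measured TRiC gene among them. For those the share to set beside the counts is 81.4% below 0, with a median of -0.34, rather than 61.8%.

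The 2 arrays were alike in depth of signal: the share of probes well above background was 57.5% for control and 60.6% for RCCS, 0 spots were saturated, and of 142 member spots 1 was left out as an outlier. All 7 macrophage markers checked were well above background on both arrays, with a summed signal of 768100 and 924292, as were 8 of 9 osteoclast markers (12595 and 15792); Calcr, the ninth, was near background. The osteoclast sum was higher in RCCS through Ctsk, the osteoclast protease cathepsin K, which went from 2225 to 5896 (1.22). Of the 8 measured osteoclast markers, 6 were below 0: the fusion genes Dcstamp (-1.62) and Ocstamp (-0.95), the proton pump subunit Atp6v0d2 (-0.96), Mmp9 (-0.66), Oscar (-0.43) and Itgb3 (-0.40). All 7 macrophage markers were above 0, 6 of them by at most 0.31 and Itgam, the integrin CD11b, by more (signals of 1289 and 5768). Of markers of other cells, the 3 of T cells summed to 873 and 714, the 3 of B cells to 194 and 231, the 3 of fibroblasts to 77.2 and 525, the 3 of osteoblasts to 59.9 and 214 and the 3 of epithelium to 153 and 95.1. Dcn, a fibroblast marker, went from 15.2 to 462, and Runx2, an osteoblast marker, from 31.9 to 168; their part in the chaperone values was not tested.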

How the data were processed

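RNA of 2 cultures was hybridised to 1-colour Agilent mouse arrays, 1 array per group, on 1 slide. The deposited spot values are linear intensities, made with Agilent Feature Extraction 9.5.3.1 per the file headers, with background subtracted and surface trends removed and no scaling between arrays. The authors also deposited a ratio per probe (median 0.06 and lowest value 0.01 in both columns). Its scale is not stated. Divided into the scanner signals it gives 849 (control) and 964 (RCCS), so genes were not centred and neither array is set against the other.

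Outlier spots were left out and spots of a probe averaged. Probes well above background on at least 50% of spots on both arrays counted as measured. Signals were divided by the array's 75th percentile over 41171 probes, and log2 ratios averaged per gene. A gene above background on 1 array was set against the other array's lowest signal above background (24.2 control, 21.2 RCCS) or its own signal there, whichever was higher. The resulting fold takes no account of spot error. Members kept the array's names; other genes took the symbol of their accession in the GRCm38.p6 reference table (22950 probes matched, 98 of them among the 124 member probes). Chaperone class and compartment were assigned by hand. Named in the text are all members, up to 4 genes per partner list with the widest ratios, and a few fixed partners. Members, lists and classes were chosen with earlier results of these data known. Scaling and averaging were tested on simulated data. Normexp, quantile and loess alternatives used limma 3.58.1. Alternatives of scaling, background, dim-probe filter, threshold and probe choice were run, and no test between conditions was possible. A gene of a partner list is not reported here.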

Additional observations from a re-analysis of the deposited data

How the results depend on the processing

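No paired analysis was possible because each group had 1 array; for the same reason no array could be left out. Of 175 values of medians and counts under the alternatives, 149 stayed within their limit. For medians this was a 95% spot-error limit set for each group, which is wider than the typical spot error. It is also wider than some of the medians, so a median could change sign and stay within it. The DNAJ and ER medians did so with the 75th percentile of measured probes, going from -0.06 to 0.07. For counts it was 1.5 times. The balance of the array depends on the scaling: 50.8% of calls past 2-fold were higher, but 82.1% with spike-in scaling (7 of 10 spike-in probes, median -0.31), 66.7% with the 75th percentile of measured probes and 63.5% with loess, which moved the all-gene median by 0.31, 0.14 and 0.13. Without the filter on dim probes it moved by -0.12. Against 622 genes at least 2-fold higher and 603 lower, the counts were 1201 and 261 with spike-in scaling, 364 and 346 with normexp, 1607 and 1804 without the filter, and 1560 and 2378 at 1.5-fold. Members at least 2-fold lower were 0 (in place of 1, Hspb1) with spike-in scaling, the 75th percentile of measured probes, loess or normexp, 2 without the filter (Dnajb8 and Dnajc5b, both dim) and 7 at 1.5-fold. Spike-in scaling put the median of all members at 0.12, of Hsp90 at -0.11, of Hsp70 at -0.0495, of DNAJ and of the ER members at 0.24 and of cytosolic members at 0.0607, and that of the small members at 0.09, so the medians of all members, small, DNAJ, ER and cytosolic genes changed sign; against all genes these are the same distances as before. Hsp90 came to -0.12 with quantile normalization and -0.11 with loess, and the chaperonin pair to -0.23 with loess. The ER median was 0.21 with the brightest probe. The choices of probe by position were added after the data were seen: the ER median was 0.21 with the probe nearest the 3′ end and -0.33 with the farthest. Of the 52 members, 26 kept their sign under each of the alternatives run on them, 18 below 0 and 8 above. Signal over background limits Hspb7, Hspa1l, Hspa12b, Dnajb5, Dnajc5b and Dnajc5g, where a single spot varies by 0.26 (the median SD over 42 repeated probes with a control signal under 100), against 0.04 for 109 brighter probes.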

Other observations

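A further 8 genes meet the name pattern only under their current symbol, since the array lists them under older names; this set was added after the data were seen. Of these, 7 were measured, and none was at least 1.5-fold higher or lower. Over all measured genes 9.74% were that much higher and 14.8% that much lower, so a count of none among 7 says little. Hspbp1, which encodes a nucleotide exchange factor of Hsp70, had signals of 5970 in control and 5047 in RCCS (log2 ratio -0.43). Dnajc24, which acts in the diphthamide modification of an elongation factor, was at -0.43, Dnajc25 at -0.39 and Dnajc27 at -0.39. Dnajc30, a mitochondrial member, was at -0.04, and Hspa13 (Stch), an Hsp70 relative of the ER, at 0.04 with signals of 1040 and 1266. Dnajc22 was at 0.18. Dnajc28 passed the background limit in RCCS alone and was dim there. With these 7 the measured set grows from 52 to 59 genes, and the count at least 2-fold lower remains 1.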
